A study of Mus musculus with 2 samples.

Results

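The 8 genes described here are the constant region genes of the mouse immunoglobulin heavy chain: Ighm, Ighd, Ighg3, Ighg1, Ighg2b, Ighg2c, Ighe and Igha. They were taken by name, 8 of the 32285 genes counted, and all 8 were present in the count matrices. Their counts were read in spleen B cells, in plasma cells and, for comparison, in T cells, which do not make antibodies.

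Spleen cells of C57BL/6 recipients of skin grafts were profiled in droplets, with 5′ ends of transcripts sequenced per cell. The study, by its title, concerns the Th17 pathway in the making of anti-HLA antibodies. The ALLO library came from wild-type C57BL/6 grafted with skin of C57BL/6-Tg(HLAA2.1)1Enge/J donors, which carry a human HLA-A2.1 transgene, at weeks 0 and 5. The SYN library came from wild-type C57BL/6 grafted in the same way, but with wild-type C57BL/6 skin, and all spleens were taken 4 weeks after the second graft. Neither group was left ungrafted. All cells were frozen, thawed and passed over a column that removes dead cells. The labels do not say how many animals each library holds or give the animals' ages. Each group was 1 library, so no difference had a replicate check and no test was possible. Intervals below are 95% intervals for counting error only, and each comparison is between the 2 libraries, not between the treatments.

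A B cell makes IgM and IgD together from 1 long primary transcript, in which the same variable exon is spliced either to the Ighm or to the Ighd exons. Class switch recombination cuts out the DNA between and joins the variable exon to a gene further downstream. The cell then makes IgG, IgE or IgA in place of IgM. IgM is secreted early in a response, IgD is mainly a surface receptor of mature naive B cells, IgG subclasses dominate serum antibody and IgA is the antibody of mucosal surfaces. Constant exons are also transcribed without a variable exon, as germline transcripts, so a single count of a downstream gene does not by itself show a switched cell.

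The genes lie in this order on the minus strand of chromosome 12 (GRCm38, the build that mm10 names), with Ighm at chr12:113418558-113422730 and Igha at chr12:113254830-113260236. Ighd starts 2.23 kb after Ighm ends, and the stretch from Ighm to Igha, with both genes included, spans 168 kb. The opening 60 bases of the first coding exon (CH1) are shown because they are what tells the classes apart at the 5′ side of the constant region. Capitals in Ighg3, Ighg1 and Ighg2c mark bases that differ from Ighg2b at the same position. The sequences come from the GENCODE M21 transcripts of GRCm38, 5′ to 3′ on the minus strand.
Ighm, chr12:113422671-113422730: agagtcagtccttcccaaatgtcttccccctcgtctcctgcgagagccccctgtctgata
Ighd, chr12:113416265-113416324: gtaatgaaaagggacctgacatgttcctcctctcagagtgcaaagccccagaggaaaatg
Ighg3, chr12:113361173-113361232: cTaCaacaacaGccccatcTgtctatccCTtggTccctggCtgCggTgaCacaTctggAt
Ighg1, chr12:113330464-113330523: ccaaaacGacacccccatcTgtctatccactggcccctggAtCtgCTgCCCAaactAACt
Ighg2b, chr12:113307874-113307933: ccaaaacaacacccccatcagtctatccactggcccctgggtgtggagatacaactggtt
Ighg2c, chr12:113288873-113288932: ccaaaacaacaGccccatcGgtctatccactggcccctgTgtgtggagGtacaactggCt
Ighe, chr12:113273189-113273248: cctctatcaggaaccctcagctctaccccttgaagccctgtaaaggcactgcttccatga
Igha, chr12:113260177-113260236: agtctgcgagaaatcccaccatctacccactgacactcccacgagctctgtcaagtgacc

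Over the whole CH1 exon the 4 IgG genes were 78.4% to 88.3% identical to each other. Ighg2b and Ighg2c differed at 5 of these 60 bases and shared an unbroken run of 78 bases elsewhere in their transcripts, and Ighg3 and Ighg2b shared a run of 88. Reads inside such runs cannot be placed on 1 IgG gene, so the split of IgG counts between the 4 genes is uncertain. Ighm and Ighd had no run longer than 15 bases in common with each other or with any other of the 8 genes.

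Barcodes with at least 1000 unique molecular identifiers (UMIs, the count of distinct captured transcripts) were kept: 9926 of 11185 in ALLO and 11267 of 17777 in SYN, with medians of 3304.5 and 3138 UMIs. The libraries shared 264 barcode sequences. A B cell had at least 2 UMIs of Cd79a and Cd79b, none of Cd3d, Cd3e and Cd3g and fewer than 3 of Jchain. This gave 6945 B cells in ALLO and 6788 in SYN, with median depths of 3173 and 2999 UMIs. Ms4a1, the gene of the B cell surface protein CD20, which the rule did not use, had 1008 CPM (UMIs of a gene per 1000000 UMIs of the class) in ALLO B cells and 1035 CPM in SYN B cells, against 9.76 and 13.8 CPM in T cells. Cd22 had 288 and 285 CPM, against 9.14 and 8.14 CPM. The neutrophil genes S100a8 and S100a9 stood apart between the libraries, at 3.97 CPM in ALLO and 463 CPM in SYN B cells, and the myeloid genes Lyz2, Csf1r and Itgam together had 9.51 and 55.5 CPM. Their part in the values below was not tested.

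Ighm was the leading constant gene of the B cells by UMI count. It had 31515 UMIs in ALLO B cells, 1239 CPM (1225 to 1252), and 27864 UMIs in SYN B cells, 1220 CPM (1206 to 1234). Ighm was detected in 94.8% of ALLO and 92.0% of SYN B cells, at a median of 4 and 3 UMIs per cell. The level in ALLO was 1.02-fold that in SYN (0.999 to 1.03). Ighd had 12804 UMIs in ALLO B cells, 503 CPM (495 to 512), and 11518 UMIs in SYN B cells, 504 CPM (495 to 514). ALLO over SYN was 0.998 (0.973 to 1.02). The counting intervals of the libraries overlapped for each of the 2 genes, and the interval of each ratio covers differences of at most a few percent.

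Ighm and Ighd were present together in most B cells. In ALLO 4993 of 6945 B cells (71.9%) held UMIs of both genes, 1588 (22.9%) of Ighm alone and 207 (2.98%) of Ighd alone. In SYN the corresponding numbers were 4584 of 6788 (67.5%), 1664 (24.5%) and 253 (3.73%). Cells with neither gene numbered 157 (2.26%) in ALLO and 287 (4.23%) in SYN, and they were shallow, with median depths of 2099 and 1318 UMIs. Of them 37 in ALLO and 37 in SYN held a UMI of a switched gene, that is of an IgG gene, Ighe or Igha. Those cells were deeper, with median depths of 4018 and 2989 UMIs.

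The Ighm to Ighd ratio was 2.46 UMIs of Ighm per UMI of Ighd (2.41 to 2.51) in ALLO B cells and 2.42 (2.37 to 2.47) in SYN B cells. ALLO over SYN was 1.02 (0.987 to 1.05). UMIs are counted at the 5′ end and were not scaled for length. Divided by the summed exon length of each gene, 1886 bases for Ighm and 1900 for Ighd, the ratios were 2.48 and 2.44.

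B cells were then split by Fcer2a, the low-affinity IgE receptor CD23 of follicular B cells, by Myof or S1pr3, genes of marginal zone B cells, and by Cd93, a marker of transitional B cells newly arrived from the marrow. A split rests on at least 1 UMI of the marker. Fcer2a was detected in 4973 ALLO and 4660 SYN B cells, Myof or S1pr3 in 458 and 406, and Cd93 in 141 and 125. No marker was detected in 1698 and 1870. The groups overlapped: 225 of the 458 ALLO cells (49.1%) and 188 of the 406 SYN cells (46.3%) with Myof or S1pr3 also held Fcer2a, as did 96 of the 141 and 81 of the 125 Cd93 cells. Other markers, not used in the splits and named here after their values were seen, were checked. Dtx1, a Notch target of marginal zone B cells, had 280 and 334 CPM with Myof or S1pr3 against 86.0 and 90.7 CPM with Fcer2a, and the complement receptor Cr2 had 737 and 726 against 329 and 311 CPM. Myb had 40.1 and 39.0 CPM in Cd93 cells against 3.55 and 4.77 in Fcer2a cells. Mki67, a gene of dividing cells, was also higher there, at 129 and 156 CPM against 12.4 and 10.0.

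The Ighm to Ighd ratio was lowest in Fcer2a cells. There it was 2.24 (2.18 to 2.29) in the ALLO library and 2.17 (2.11 to 2.22) in SYN. It was 3.29 (3.16 to 3.44) and 3.31 (3.17 to 3.47) in cells with no Fcer2a UMI. In Cd93 cells it was 3.31 (2.91 to 3.77) and 3.81 (3.29 to 4.43). Cells with Myof or S1pr3 had 3.76 (3.47 to 4.08) in ALLO and 4.54 (4.13 to 4.99) in SYN. Within ALLO this was 1.68-fold (1.55 to 1.83) the ratio of Fcer2a cells, and within SYN 2.09-fold (1.90 to 2.31). Between the libraries the ratio of the Myof or S1pr3 cells was 0.829-fold in ALLO relative to SYN (0.733 to 0.938), while for Fcer2a cells it was 1.03 (0.997 to 1.07) and for Cd93 cells 0.867 (0.714 to 1.05). In cells with Myof or S1pr3 alone it was 0.849 (0.687 to 1.05), an interval that holds 1. With means of per-cell CPM, the ratio of the Myof or S1pr3 cells was 1.77-fold that of Fcer2a cells in ALLO and 1.88-fold in SYN. The markers are not evenly detected at different depths, and the median depth of the Myof or S1pr3 cells was 4901.5 and 4225.5 UMIs against 3222 and 3104 in Fcer2a cells.

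**Figure D1:**
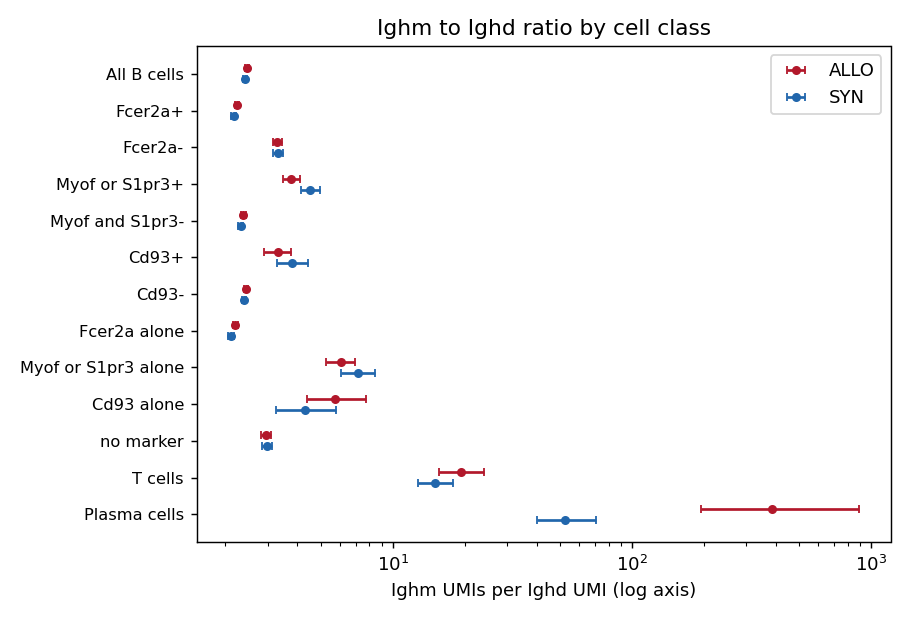
Ighm UMIs per Ighd UMI (log axis) in each cell class, with 95% counting intervals as bars, ALLO in red and SYN in blue. Cells with Fcer2a alone sit lowest at 2.20 and 2.11, next to all Fcer2a cells at 2.24 and 2.17. Cells with Myof or S1pr3 alone reach 6.06 and 7.14, and T cells and plasma cells lie further to the right.

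Cells with a single marker differed more. With Fcer2a alone (4654 and 4395 cells) the ratio was 2.20 (2.15 to 2.26) in ALLO and 2.11 (2.05 to 2.16) in SYN. With Myof or S1pr3 alone (229 and 214 cells) it was 6.06 (5.27 to 6.99) and 7.14 (6.07 to 8.43), 2.75-fold (2.39 to 3.17) and 3.39-fold (2.88 to 3.98) that of the cells with Fcer2a alone. With Cd93 alone (41 and 40 cells) it was 5.77 (4.37 to 7.72) and 4.31 (3.26 to 5.77).

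Between Fcer2a cells and cells with Myof or S1pr3, the difference lay mainly in the Ighd count. Ighd had 304 CPM (283 to 327) in ALLO and 268 CPM (246 to 292) in SYN cells with Myof or S1pr3, which is 56.2% and 48.9% of the level in Fcer2a cells, 541 CPM (530 to 552) and 549 CPM (537 to 560). Ighm was near the same level in these classes. It had 1144 CPM (1102 to 1187) and 1218 CPM (1170 to 1267) with Myof or S1pr3, 94.6% and 102% of its level in Fcer2a cells. In cells with Myof or S1pr3 alone Ighd had 205 and 174 CPM, 37.1% and 30.8% of the level with Fcer2a alone, and Ighm 102% and 104%. Cd93 cells had more Ighm, 1434 CPM (1346 to 1525) and 1546 CPM (1445 to 1652), and less Ighd, 434 and 406 CPM, than Fcer2a cells.

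Zfp318, the zinc finger protein that lets transcription run on from Ighm into Ighd, had a like order. It had 198 CPM (191 to 204) and 257 CPM (249 to 265) in Fcer2a cells, and 120 CPM (107 to 135) and 139 CPM (124 to 157) in cells with Myof or S1pr3. With these markers alone it had 202 and 261 CPM against 80.2 and 86.8 CPM. Over all B cells Zfp318 was 0.788-fold in ALLO relative to SYN (0.757 to 0.820), while Ighd was 0.998-fold. Ebf1 and Pax5, transcription factors that hold B cell identity, had 799 and 808 CPM and 250 and 244 CPM in Fcer2a cells, against 793 and 805 CPM and 235 and 231 CPM with Myof or S1pr3.

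The genes whose level was most like that of Ighm across 6 classes in each library (12 points, 9188 genes searched) were Pck2 (Pearson r = 0.96), Ckap4 (0.95) and Eaf2 (0.94). Those most like Ighd were Snx9 (0.98), Pik3c2b (0.97) and Irf8 (0.97), the last a transcription factor of B cells and myeloid cells. Ighd and Ighm themselves had r = 0.28. The plasma cells carry much of the spread of Ighm in these points, and the 12 points share 2 libraries, so the values are a description.

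Switched genes were rare in B cells. To compare cells of unequal depth, each was thinned to 1000 UMIs. After thinning 138 of 6945 ALLO B cells (1.99%, 1.67 to 2.34) and 165 of 6788 SYN B cells (2.43%, 2.08 to 2.83) held a UMI of any of the 6 switched genes. ALLO over SYN was 0.817 (0.647 to 1.03), and the intervals of the 2 shares overlapped. The summed level of the 6 genes lay the other way, 32.4 CPM in ALLO and 27.7 CPM in SYN, a ratio of 1.17 (1.05 to 1.30), or 1.13 (1.01 to 1.25) without the top cell of each library. Without thinning the shares were 5.79% and 5.83%, with 2.31% and 2.28% in T cells. In T cells, whose median depths were 4213.5 and 4044 UMIs, 9 of 1772 (0.508%, 0.233 to 0.962) and 20 of 2417 (0.828%, 0.506 to 1.28) held such a UMI after thinning, so the B cell shares lay above the T cell shares in each library. For comparison, 69.3% and 67.2% of thinned B cells held an Ighm UMI and 40.5% and 39.4% an Ighd UMI.

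**Figure D2:**
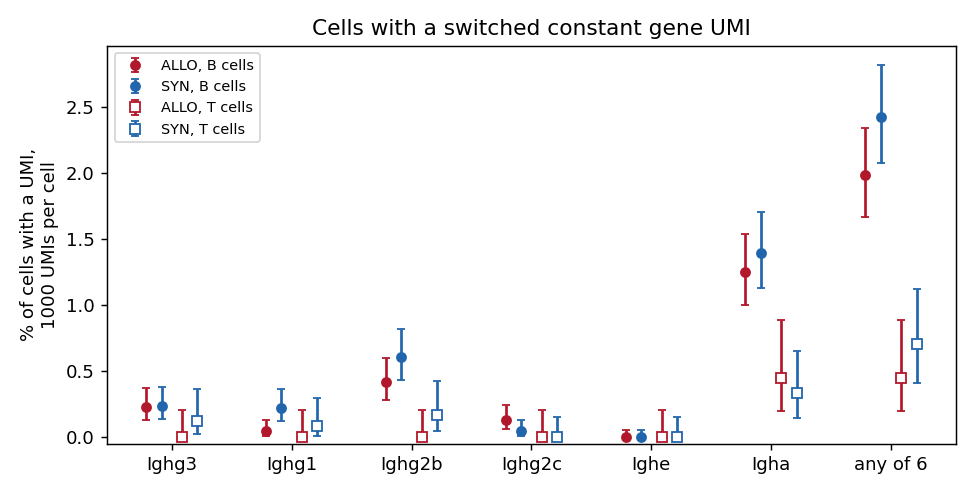
Share of cells with a UMI of each switched constant gene after thinning to 1000 UMIs per cell, for B cells (filled) and T cells outside the plasma rule (open), with 95% Clopper-Pearson intervals. For any of the 6 genes the B cell shares are 1.99% in ALLO and 2.43% in SYN, above both T cell shares.

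Igha was the most frequent of the switched genes. It had 435 UMIs in ALLO B cells, 17.1 CPM (15.5 to 18.8), and 314 in SYN B cells, 13.7 CPM (12.3 to 15.3). Most Igha-positive cells held a single UMI, 235 of 276 in ALLO and 210 of 239 in SYN. Thinned shares were 1.25% (1.00 to 1.54) and 1.40% (1.13 to 1.71), against 0.508% (0.233 to 0.962) and 0.455% (0.227 to 0.813) in T cells. As a level per class Igha could not be told from the T cells, which had 14.8 and 15.1 CPM, but there 68 of the 118 ALLO UMIs and 93 of the 152 SYN UMIs came from 1 droplet in each library. Without the B cell with the most Igha UMIs, which held 50 of the 435 in ALLO, ALLO over SYN went from 1.24 (1.07 to 1.44) to 1.15 (0.983 to 1.34).

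The IgG genes had 388 UMIs together in ALLO B cells and 317 in SYN B cells. Ighg2b had 196 and 164 UMIs, 7.70 CPM (6.66 to 8.86) and 7.18 CPM (6.12 to 8.37), a ratio of 1.07 (0.868 to 1.33). Ighg3, the class of many responses to carbohydrates, had 128 and 78 UMIs, 5.03 CPM (4.2 to 5.98) and 3.41 CPM (2.70 to 4.26), a ratio of 1.47 (1.10 to 1.98). In ALLO 19 of the 128 Ighg3 UMIs came from 1 cell, and the thinned shares were 0.230% and 0.236%. Ighg1 and Ighg2c lay on opposite sides of 1. Ighg1 had 19 UMIs in 7 ALLO cells, 0.747 CPM (0.450 to 1.17), and 61 UMIs in 33 SYN cells, 2.67 CPM (2.04 to 3.43), so that ALLO over SYN was 0.280 (0.158 to 0.475). Ighg2c, which C57BL/6 mice have in place of Ighg2a, had 45 UMIs in 19 ALLO cells, 1.77 CPM (1.29 to 2.37), and 14 UMIs in 8 SYN cells, 0.613 CPM (0.335 to 1.03), a ratio of 2.89 (1.56 to 5.69). Without the cell with the most UMIs in each library the ratios were 0.242 (0.124 to 0.443) for Ighg1 and 2.96 (1.43 to 6.74) for Ighg2c. After thinning, the ratio of the shares of cells with a UMI was 0.195 (0.0363 to 0.691) for Ighg1. For Ighg2c it was 2.93 (0.732 to 16.8), an interval that holds 1. In T cells Ighg1 had 0 UMIs in ALLO and 9 in SYN (0.894 CPM), and Ighg2c had 1 (0.125 CPM) and 6 (0.596 CPM), of which 5 were in 1 droplet. The SYN level of Ighg2c in B cells was thus close to that in T cells. The 4 IgG genes together were 0.259-fold in ALLO relative to SYN in T cells (0.104 to 0.561), and the part of such RNA in the B cell ratios was not tested. Ighe, the gene of IgE, had 1 UMI in each library.

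Of the 8 genes, 7 had at least 20 UMIs over both libraries. At 1.5-fold, a limit of size and not of significance, 1 of the 7 was higher in ALLO B cells (Ighg2c) and 1 lower (Ighg1), where 2.77% of all 12415 genes measured in B cells were at least 1.5-fold higher and 4.88% at least 1.5-fold lower. The median log2 ratio of the 7 genes was 0.10, against -0.07 over all genes. Each of these 2 genes had at most 61 UMIs in either library.

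The same comparison within the subsets gave small counts. In Fcer2a cells 6 constant genes had at least 20 UMIs. Ighg3 was at least 1.5-fold higher in ALLO, with 88 and 45 UMIs and a ratio of 1.72 (1.19 to 2.52), and Ighg1 at least 1.5-fold lower, with 17 and 31 UMIs and a ratio of 0.482 (0.25 to 0.898), where 3.22% of 11849 genes were higher and 3.93% lower. In cells with Myof or S1pr3 5 had enough UMIs. Igha was higher in ALLO, 39 and 14 UMIs and 2.26 (1.20 to 4.51), and Ighg3 lower, 18 and 22 UMIs and 0.664 (0.336 to 1.30), against 4.2% and 7.7% of 9303 genes. After thinning, the ratio of the shares of cells with an Ighg3 UMI was 0.937 (0.330 to 2.66) in Fcer2a cells and 1.48 (0.287 to 9.51) with Myof or S1pr3, and both intervals hold 1. For Ighg1 in Fcer2a cells this ratio was 0.312 (0.0544 to 1.25), and for Igha with Myof or S1pr3 1.42 (0.409 to 5.51). These intervals also hold 1. In Cd93 cells Ighm and Ighd alone had enough UMIs and neither was past 1.5-fold, against 8.53% and 11.8% of 6789 genes. There Ighg2b had 1 and 16 UMIs, of which 15 were in 1 SYN cell.

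Shares of subset cells with a switched UMI after thinning overlapped. They were 1.77% (1.42 to 2.18) and 2.32% (1.90 to 2.79) in Fcer2a cells, 3.28% (1.84 to 5.34) and 2.96% (1.54 to 5.11) with Myof or S1pr3, and 2.84% (0.778 to 7.10) and 4% (1.31 to 9.09) in Cd93 cells. Without thinning they were 5.33% and 5.67%, 10.0% and 8.87%, and 9.22% and 7.2%.

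**Figure D3:**
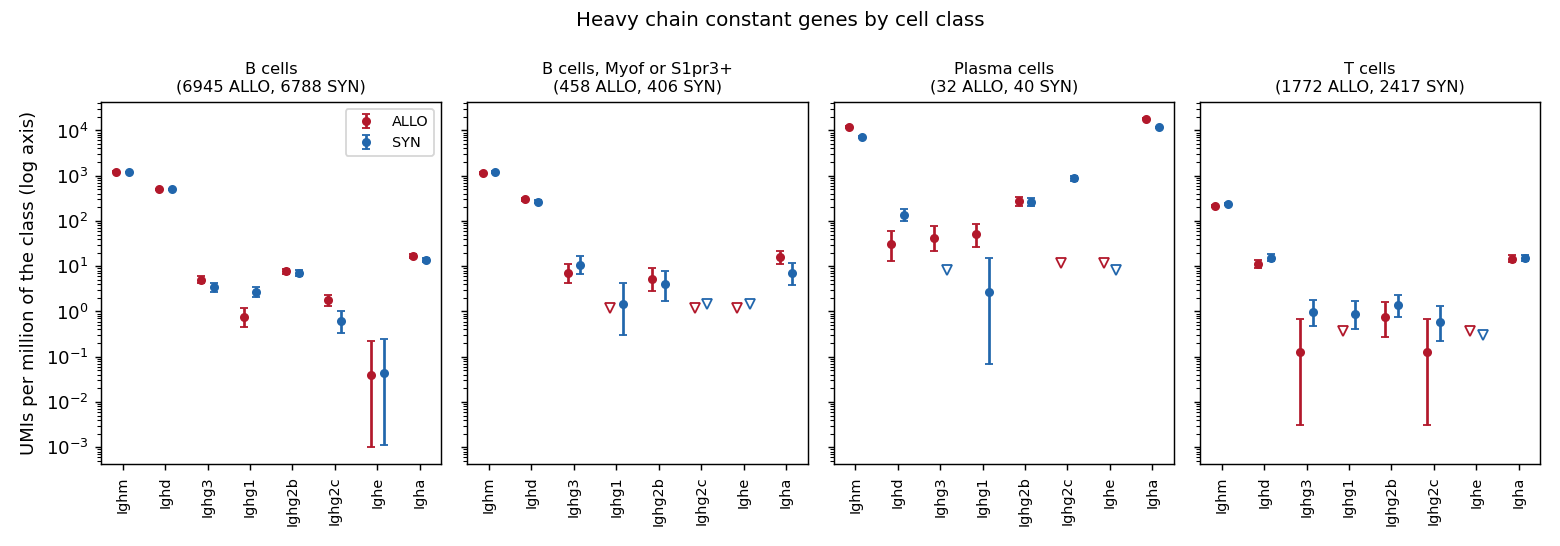
CPM of each constant gene (log axis) in B cells, B cells with Myof or S1pr3, plasma cells and T cells, with 95% Poisson intervals. Open triangles mark genes with 0 UMIs and stand at the level that 3 counts would give. Ighm and Ighd of the 2 libraries coincide in B cells, and Ighg1 and Ighg2c lie apart.

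A B cell was assigned to a constant gene with 3 or more UMIs and a count 2 or more times that of the next gene. Ighm took 3514 ALLO cells (50.6%) and 3103 SYN cells (45.7%), Ighd 370 (5.33%) and 392 (5.77%), and 3026 and 3268 cells were not assigned. Switched genes took 35 ALLO cells (0.504%, 0.351 to 0.700) and 25 SYN cells (0.368%, 0.238 to 0.543). ALLO over SYN was 1.37 (0.796 to 2.39), an interval that holds 1. The T cells had 2 and 5 such droplets, 0.113% (0.0137 to 0.407) and 0.207% (0.0672 to 0.482), all assigned to Igha, and Ighm took 168 (9.48%) and 267 (11.05%) of them.

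Within the 35 ALLO cells 14 were assigned to Igha, 13 to Ighg2b, 4 to Ighg3, 2 to Ighg1 and 2 to Ighg2c. Within the 25 SYN cells 10 were assigned to Igha, 9 to Ighg2b, 4 to Ighg1, 1 to Ighg3 and 1 to Ighg2c. No cell was assigned to Ighe. A limit of 3 cells allows a share of up to 0.0432% in ALLO and 0.0442% in SYN, and the upper Clopper-Pearson bounds were 0.0531% and 0.0543%. Igha and Ighg2b led in both libraries, with close counts and overlapping intervals, so their order cannot be told. The counts of the others were too few to rank. Ighm was at 0 in 24 of the 35 and 18 of the 25 cells, and Ighd at 0 in 29 and 21. The rule itself holds these counts low, since the leading gene needed 2 or more times the count of the next. The cells were deeper than most, with medians of 4671 and 3954 UMIs, and the minimum of 3 UMIs can favour deep cells.

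The cells assigned to a switched gene differed from those assigned to Ighm in genes outside the immunoglobulin loci. The list of memory and B1 cell genes had 311 and 179 CPM in them, against 19.9 and 20.9 CPM in Ighm cells. These sums came from 67 and 19 UMIs, and in SYN 2 of the 5 genes had none. The 5 genes of the list (Cd80, Nt5e, Zbtb32, Bhlhe41 and Cd5) had 284 and 298 CPM in T cells. The costimulatory ligand Cd80 was detected in 9 of 35 ALLO and 5 of 25 SYN cells, 25.7% and 20%, against 0.598% and 0.548% of Ighm cells. Bhlhe41, a transcription factor of B1 cells, was detected in 31.4% and 28.0%, against 3.67% and 3.13%. Myof and S1pr3 had no UMI in them, while 313 of 3514 ALLO and 272 of 3103 SYN Ighm cells held one. The 7 marginal zone markers together, Myof and S1pr3 included, had 719 and 658 CPM in the switched cells, against 973 and 989 CPM in Ighm cells. The median depth of the Ighm cells was lower, 3372.5 and 3289 UMIs. The 8 plasma cell markers together had 677 and 649 CPM in the switched cells, with 4 of the 8 at 0 in each library, against 594 and 579 CPM in Ighm cells. The germinal centre list had 213 and 461 CPM in the switched cells, against 69.2 and 81.9 CPM in Ighm cells. Of this list, Mki67 had 20 UMIs in 4 ALLO cells and 32 in 3 SYN cells. These are 92.7 and 301 CPM, against 18.6 and 27.2 CPM in Ighm cells. Fas had 11 and 2 UMIs, Bcl6 6 and 7, and S1pr2 2 and 1. The part of dividing cells in the difference was not tested. The marker genes of this paragraph were named after their values were seen. In SYN, 1 of the 25 cells held all of the 214 S100a8 UMIs and 243 S100a9 UMIs found in them, and this cell counts toward Igha.

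Plasma cells, taken as barcodes with at least 3 Jchain UMIs and at least 1 of Xbp1, numbered 32 in ALLO and 40 in SYN, with median depths of 3476 and 4028.5 UMIs. Jchain is the chain that links IgM and IgA into polymers, and the rule can favour cells of these classes. Plasma genes outside the rule were present: Tnfrsf17, the survival receptor BCMA, had 279 and 241 CPM against 0 UMIs and 1 UMI in the B cells, and Mzb1 had 1792 and 2627 CPM against 356 and 366 CPM. The B cell genes Ms4a1, with 290 and 241 CPM, and Cd22, with 65.8 and 34.9 CPM, were below their B cell levels. A Cd3 UMI was present in 13 of the 32 and 14 of the 40, more often than in droplets with Cd79 and under 3 Jchain UMIs, of which 7.03% and 15.8% held one.

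Constant genes made up far more of the RNA in these cells than in B cells. Ighm had 3077 UMIs in ALLO plasma cells, 11910 CPM (11492 to 12338), and 2692 in SYN, 7223 CPM (6952 to 7501), a ratio of 1.65 (1.57 to 1.74). Igha had 4663 UMIs, 18048 CPM (17534 to 18574), and 4334 UMIs, 11628 CPM (11284 to 11979), a ratio of 1.55 (1.49 to 1.62). Single cells weighed heavily: 1106 of the 3077 Ighm UMIs and 2248 of the 4663 Igha UMIs of ALLO came from 1 cell each. Without the top cell of each library the ratios were 1.55 (1.45 to 1.65) for Ighm and 1.14 (1.08 to 1.20) for Igha. Ighd, which plasma cells shut down, had 8 UMIs in ALLO and 51 in SYN, of which 25 were in 1 cell. Among 2956 genes measured in plasma cells, 4.4% were at least 1.5-fold higher and 49.4% at least 1.5-fold lower in ALLO. Of the 8 constant genes, 5 had at least 20 UMIs, and of these Ighm and Igha were at least 1.5-fold higher and Ighd and Ighg2c at least 1.5-fold lower. Igha no longer reached 1.5-fold without the top cells. The plasma cells of the libraries also differed in their median share of ribosomal protein UMIs, 12.7% in ALLO and 19.4% in SYN, and in the sum of the 8 plasma cell markers, 46303 and 27232 CPM, of which Jchain and Xbp1 are in the rule. Their part in these ratios was not tested.

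Counted by cells, the classes stood differently in the libraries. In ALLO 20 of 32 plasma cells (62.5%, 43.7 to 78.9) were assigned to Ighm, and in SYN 9 of 40 (22.5%, 10.8 to 38.5), a ratio of 2.78 (1.21 to 6.93). Igha took 10 of 32 (31.3%, 16.1 to 50.0) and 26 of 40 (65.0%, 48.3 to 79.4), a ratio of 0.481 (0.207 to 1.03). Ighg2b took 1 cell in each library and Ighg2c 1 cell in SYN. The share assigned to any switched gene was 34.4% (18.6 to 53.2) in ALLO and 70.0% (53.5 to 83.4) in SYN, a ratio of 0.491 (0.221 to 1.02). The remaining 1 and 3 cells were not assigned.

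**Figure D4:**
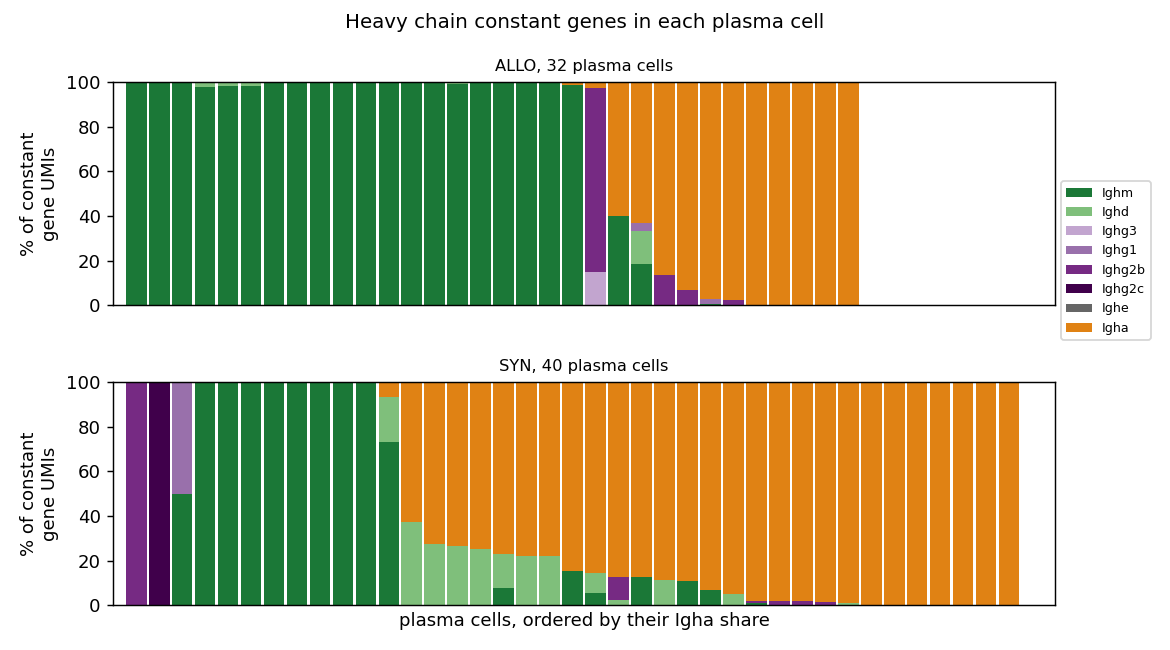
Each bar is 1 plasma cell and shows how its constant gene UMIs divide among the 8 genes, ALLO above and SYN below, ordered by the Igha share. Of the 40 SYN cells, 39 had such UMIs. Green marks Ighm, to which 20 of 32 ALLO cells were assigned, and orange Igha, to which 26 of 40 SYN cells were.

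The libraries lay further apart among droplets with a Cd3 UMI. Among plasma cells with no Cd3 UMI, 10 of 19 in ALLO (52.6%, 28.9 to 75.6) and 8 of 26 in SYN (30.8%, 14.3 to 51.8) were assigned to Ighm, a ratio of 1.71 (0.608 to 4.99). Igha took 8 of 19 (42.1%) and 14 of 26 (53.8%), a ratio of 0.782 (0.284 to 2.0), and for any switched gene the ratio was 0.770. Among those with a Cd3 UMI, Ighm took 10 of 13 in ALLO and 1 of 14 in SYN, and Igha 2 and 12. The ratio was 10.8 (1.53 to 467) for Ighm and 0.179 (0.0195 to 0.806) for Igha. The SYN droplets with Cd3 were shallow, with a median of 1867 UMIs and 29.5 Jchain UMIs against 5372 and 65.5 in those without. The part of these droplets in the result was not tested.

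Most plasma cells assigned to Ighm held that gene alone. The 20 ALLO cells assigned to Ighm held 10 to 1106 constant gene UMIs with a median of 67, and 15 of them held no other constant gene. The 9 SYN cells held 15 to 770 with a median of 293, and 8 of them held no other. The 10 ALLO cells assigned to Igha held 9 to 2248 (median 78.5) and the 26 SYN cells 4 to 1166 (median 17.5). Of these, 5 and 6 held no other constant gene, and the median share of Igha was 98.8% and 94.2%. Igha was accompanied by Ighd UMIs in 11 of the 26 SYN cells and in 1 of the 10 ALLO cells. Of those 11, 6 were among the 12 droplets with Cd3 and 5 among the 14 without.

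IgG was carried by few plasma cells. All 325 Ighg2c UMIs of the SYN plasma cells were in 1 cell of 18629 UMIs, and ALLO plasma cells had 0, at least 75.1-fold lower against a floor of 3 counts in that library. Ighg2b had 71 and 98 UMIs, of which 61 and 71 were in the 1 cell of each library assigned to it. The ratio of 1.05 (0.759 to 1.43) became 0.553 (0.239 to 1.18) without these cells. The ALLO Ighg2b cell also held all 11 Ighg3 UMIs of its class, and the 88 bases that these 2 transcripts share limit what can be read from that. Ighg1 had 13 UMIs in ALLO, of which 12 were in 1 cell assigned to Igha, and 1 in SYN. Ighe had none.

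T cells, with at least 1 Cd3 UMI and no Cd79a, also held UMIs of constant genes. They numbered 1772 in ALLO and 2417 in SYN, and 1 and 3 of them also met the plasma rule. The 8 genes together had 242 CPM (231 to 253) in ALLO and 270 CPM (260 to 280) in SYN, a ratio of 0.897 (0.845 to 0.951), and nearly all of it was Ighm. Ighm had 1717 and 2368 UMIs, 215 CPM (205 to 225) and 235 CPM (226 to 245), a ratio of 0.914 (0.858 to 0.973). Ighd had 89 and 157 UMIs, 11.1 CPM (8.95 to 13.7) and 15.6 CPM (13.2 to 18.2). Of the 4 constant genes with at least 20 UMIs, 0 were at least 1.5-fold higher and 1 at least 1.5-fold lower in ALLO, where 5.8% and 3.94% of 11405 genes were. The gene that was lower is Ighg2b, with 6 and 14 UMIs and a ratio of 0.540 (0.170 to 1.5), and 5 of the 6 were in 1 droplet.

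Ighm in T cells stood above other B cell genes, each taken relative to its own level in B cells. Its CPM was 17.3% (16.5 to 18.2) of the B cell level in ALLO and 19.3% (18.5 to 20.1) in SYN. Ighd stood at 2.21% (1.78 to 2.73) and 3.09% (2.62 to 3.62). Across 9 other genes of B cells the median was 1.06% in ALLO, from 0.569% for Vpreb3 to 3.17% for Cd22, and 1.28% in SYN, from 0.840% for Fcmr to 2.86% for Cd22. Igkc, the kappa light chain gene, stood at 2.33% and 2.37%. The 9 genes are Ms4a1, Cd22, H2-Aa and Cd74, with Igkc, Cd79b, Fcmr, Fcer2a and Vpreb3, which were added after values had been seen.

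**Figure D5:**
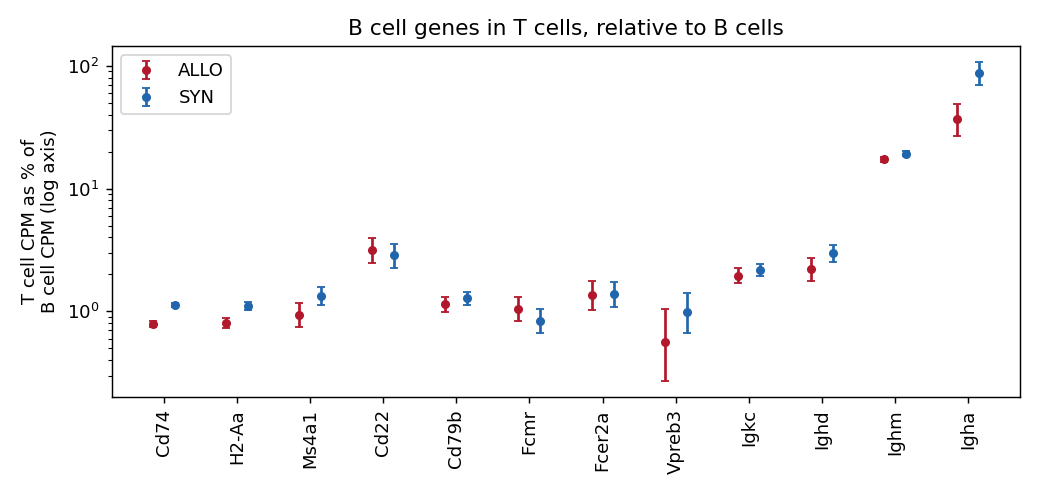
CPM of B cell genes in T cells outside the plasma rule as a percentage of their CPM in B cells (log axis), with 95% intervals. The ALLO and SYN points of Ighm stand at 17.4% and 19.3%, the B cell genes at medians of 1.06% and 1.28%, and Igha at 36.6% and 86.7%. Of the 120 Igha UMIs of these SYN T cells 93 were in 1 droplet, and their ALLO over SYN ratio of 0.525 became 1.82 without the top droplet of each library.

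The Ighm UMIs were spread over many T cells. They were found in 934 of 1772 ALLO (52.7%) and 1303 of 2417 SYN T cells (53.9%), of which 510 and 702 held a single UMI, and the most in 1 cell was 30 and 14. After thinning, 17.6% (15.9 to 19.5) and 19.3% (17.7 to 20.9) held one, against 69.3% and 67.2% of B cells. The Ighm to Ighd ratio was 19.3 (15.6 to 24.2) and 15.1 (12.8 to 17.8), 7.84-fold (6.33 to 9.71) and 6.23-fold (5.30 to 7.34) that of the B cells. Plasma cells had ratios of 385 (195 to 892) and 52.8 (40.0 to 71.1).

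The level also differed between kinds of T cell, which were split after these values had been seen. Ighm had 262 CPM (243 to 282) and 242 CPM (226 to 259) in CD4 T cells, 172 CPM (158 to 188) and 220 CPM (203 to 237) in CD8 T cells, and 99.9 CPM (72.6 to 134) and 114 CPM (90.2 to 142) in natural killer cells. These are 21.1% and 19.8%, 13.9% and 18.0%, and 8.06% and 9.36% of the B cell level. The Ighm to Ighd ratio was 31.0 and 33.7 in CD4 T cells, 12.7 and 12.5 in CD8 T cells and 8.80 and 4.11 in natural killer cells. The source of these Ighm UMIs was not tested.

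Genes that work with the constant genes were compared in B cells by lists. Of all genes measured there, 2.77% were at least 1.5-fold higher in ALLO and 4.88% at least 1.5-fold lower. The switch machinery list holds 12 genes, and 0 of 12 were past 1.5-fold in either direction. Its member Ung, a uracil glycosylase, had 10.7 and 9.67 CPM, a ratio of 1.10 (0.918 to 1.32). None of 11 genes of IgM and IgD expression, 9 of plasma differentiation and 14 of switch signals passed 1.5-fold. Irf4, a factor needed for switching and for plasma cells, came near it, with 131 and 91.3 CPM and a ratio of 1.43 (1.35 to 1.51). The median log2 ratios of these 4 lists ran from -0.14 to -0.09, with -0.07 over all 12415 genes.

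Among 9 genes of a list of immunoglobulin receptors and related genes, 1 was past 1.5-fold in B cells. Of all genes there, 4.88% were at least 1.5-fold lower in ALLO and 2.77% higher. Fcer1g, the signalling chain of Fc receptors on myeloid and natural killer cells, had 349 UMIs (13.7 CPM) in ALLO and 669 (29.3 CPM) in SYN, a ratio of 0.468 (0.410 to 0.534). The myeloid sums given above moved with it, as did the natural killer genes Ncr1, Klrb1c and Nkg7, which had 27.1 and 42.3 CPM, and their part was not tested. Fcmr, the IgM receptor of B cells, had 913 and 1028 CPM, a ratio of 0.888 (0.872 to 0.904).

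Within the B cell subsets few genes of the 5 lists were past 1.5-fold. Of all genes, 3.22% were past it higher and 3.93% lower in ALLO in Fcer2a cells. The shares were 4.2% and 7.7% with Myof or S1pr3, and 8.53% and 11.8% in Cd93 cells. Fcer1g was lower in ALLO in each subset, with ratios of 0.340 (0.283 to 0.407) in Fcer2a cells, 0.467 (0.267 to 0.799) with Myof or S1pr3 and 0.186 (0.0987 to 0.331) in Cd93 cells. The myeloid genes Lyz2, Csf1r and Itgam together had 9.99 CPM in ALLO and 53.1 CPM in SYN Fcer2a cells. They had 5.64 and 50.6 CPM with Myof or S1pr3, and 4.29 and 864 CPM in Cd93 cells. Their part in the Fcer1g ratios was not tested. Besides Fcer1g, the genes past 1.5-fold in Fcer2a and in Myof or S1pr3 cells were Exo1, 0.644 (0.354 to 1.16), and Lig4, 0.464 (0.169 to 1.19), and both intervals hold 1. In Cd93 cells Zfp318 stood at 0.621 (0.469 to 0.820) and Irf4 at 1.91 (1.30 to 2.85), with Tgfbr1 at 0.621 (0.244 to 1.53). In T cells 5.8% of all genes were at least 1.5-fold higher in ALLO and 3.94% at least 1.5-fold lower. There Pax5 stood at 1.54 (0.969 to 2.46) and Spi1 at 0.630 (0.392 to 0.993). Mzb1 stood at 0.578 (0.332 to 0.976) and Tnfrsf13c at 0.643 (0.385 to 1.05). Each of these genes had at most 60 UMIs per library.

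In plasma cells, where 49.4% of all genes were past 1.5-fold lower, 1 of 2 tested genes of the switch machinery, 3 of 5 of IgM and IgD expression, 3 of 9 of plasma differentiation and 4 of 6 of switch signals were past it. Among them were Rif1 at 0.509 (0.164 to 1.35), Tcf3 at 0.412 (0.182 to 0.850), Pou2f2 at 0.544 (0.308 to 0.926) and Ell2, which promotes the secreted form of the heavy chain, at 0.609 (0.405 to 0.899). Creb3l2 stood at 0.333 (0.142 to 0.699), Irf4 at 0.502 (0.352 to 0.705), Stat3 at 0.534 (0.231 to 1.14), Tgfbr2 at 0.590 (0.239 to 1.33) and Il21r at 0.641 (0.241 to 1.55). Of 3 tested genes of the immunoglobulin receptor list, Cd22 at 1.89 (0.863 to 4.22) and Fcrla at 1.82 (1.02 to 3.29) were past 1.5-fold higher. None of the 3 was past it lower, and 4.4% of all genes were past it higher. With 2 to 9 genes tested per list, the shares of lower genes in the other lists lie around that of all genes. That of the receptor list does not, from 3 genes. The 8 constant genes took up 30356 CPM of the ALLO and 20125 CPM of the SYN total.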

How the data were processed

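Raw UMI counts, whole numbers for each gene in each barcode, were deposited by the authors. Per the file headers they were made with Cell Ranger 6.0.2, and the submitters' processing notes add FastQC and mm10. Not given in the sources used here are the aligner's settings and the gene annotation. In all there were 39476214 UMIs in ALLO and 45435231 in SYN, and no barcode had under 500 UMIs. Groups come from the sample titles. Barcodes with at least 1000 UMIs were used. The marker rules given in the text leave 1178 ALLO and 2025 SYN barcodes in no class. They are not a clustering, and no cell annotation of the authors was used.

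UMIs were summed per class and divided by the class total (CPM). Sums have exact Poisson intervals, CPM ratios exact conditional intervals, ratios of Ighm to Ighd between classes or libraries intervals on the log scale from 4 counts, and shares Clopper-Pearson intervals, all at 95%. PCR duplicates are collapsed by UMI, and the intervals cover counting error only. Cells were thinned to 1000 UMIs with random seed 1. A ratio against 0 UMIs uses a floor of 3 counts. A gene was compared between libraries where it had at least 20 UMIs over both. Likeness is Pearson's r of log2(CPM + 1), over genes with at least 200 UMIs in B cells. Doublets were kept: the automatic threshold of Scrublet in scanpy 1.11.5 marked 1 ALLO and 0 SYN barcodes, which was not usable.

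All 8 members are named. From each list the genes at least 1.5-fold apart are named, up to 6, except those not reported here, and other genes (the marker genes, those of the B cell subsets and the largest ratios below 1.5-fold) were chosen after their values were seen. The members, lists and rules were chosen with earlier results of these data known. Some genes of the lists are counted in them but not reported here. The 8 gene IDs matched GENCODE M21. The interval steps were tested on simulated counts. Python 3.11.15, numpy 2.4.6, scipy 1.17.1 and pandas 2.3.3 were used.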

Additional observations from a re-analysis of the deposited data

Results flagged for a closer look

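Among B cells, plasma cells and T cells, 2 genes with at least 20 UMIs in a class differed in opposite directions between the libraries. Ighm stood at 0.914-fold in ALLO relative to SYN in T cells and at 1.65-fold in plasma cells. Ighg2c stood at 2.89-fold in B cells, from 45 and 14 UMIs, and at 0 in plasma cells, where ALLO had 0 UMIs and SYN had 325 in 1 cell. In each of these 2 cases the counting intervals of the UMIs lay on opposite sides of 1. For Ighg2c in plasma cells that interval takes the UMIs of 1 cell as separate counts. Counted by cells assigned to Ighg2c, the plasma cell ratio was 0 with an interval up to 48.8, which holds 1. After thinning, the B cell interval for Ighg2c (0.732 to 16.8) also holds 1. With fewer UMIs in a class, Ighg1 stood at 0.280 in B cells and at 18.8 (2.82 to 797) in plasma cells. Of its 13 UMIs in ALLO plasma cells, 12 were in 1 cell, which was assigned to Igha. Ighg3 stood at 1.47 in B cells and at 0.126 (0.0029 to 0.886) in T cells. Without the top T cell of each library the T cell interval was 0 to 1.91, which holds 1. In B cells with Myof or S1pr3, Ighd stood at 1.13 (1.01 to 1.27), against 0.715 (0.545 to 0.933) in T cells. With 1 library per group the differences between the classes were not tested.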

How the results depend on the processing

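Of 75 values under alternative processing, 69 moved by less than the counting interval. No ratio whose interval leaves out 1 reversed. That of Ighd CPM in B cells, 0.998 with an interval that holds 1, was 1.02 with all deposited barcodes and 1.01 with a mean of per-cell CPM. The other 6 values were these. With all deposited barcodes the ALLO over SYN ratio of Ighm CPM in B cells was 1.03 in place of 1.02, and that of the 8 genes in T cells 0.838 in place of 0.897. With a mean of per-cell CPM the Ighm ratio was 1.05, and the Ighm to Ighd ratio of Myof or S1pr3 cells over Fcer2a cells in SYN was 1.88 in place of 2.09. With cells of 1 marker alone that quotient was 2.75 in ALLO and 3.39 in SYN, in place of 1.68 and 2.09. Over all alternatives the ALLO over SYN ratio of the Ighm to Ighd ratio in B cells ran from 1.01 to 1.03, that of the switched share from 0.744 to 0.992, and that of plasma cells assigned to a switched gene from 0.373 to 0.770. Leaving out T cells under the plasma rule, the cell with the most heavy chain UMIs, or the 5% of barcodes with the highest Scrublet score were alternatives chosen after seeing the data. The planned removal of Scrublet doublets was not run, since its threshold marked 1 barcode. No paired analysis was possible because each group is 1 library. Between 1 and 13 B cells per library were assigned to each IgG gene, and whether depth sets that number was not tested.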
